A study of Rattus norvegicus with 59 samples.

Results

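The genes followed here were those of the class II major histocompatibility complex (MHC) of the rat and of the invariant chain, namely Cd74, RT1-Ba, RT1-Bb, RT1-Da and RT1-Db1. Members were all probes that the platform annotation pairs with these 5 symbols, of 22523 probes and 13337 named genes on the array. Of the 5 genes 4 had a probe, with 1 probe each, and each of the 4 was above background on all 59 arrays. No probe is paired with RT1-Bb in the annotation used here, so RT1-Bb was not analysed.

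The arrays, Illumina RatRef-12 expression arrays with 1 rat each, measured RNA of kidneys from 59 rats of the Fawn-Hooded Hypertensive (FHH) strain, in which hypertension and kidney damage develop with age. All groups were of this strain, and no other strain served as a control. Treated rats were the offspring of dams given pyrrolidine dithiocarbamate (PDTC), an inhibitor of the transcription factor NF-kB, in drinking water at 150 mg/L, starting 2 weeks before birth and ending 4 weeks after it. Untreated rats were matched to them in age and sex. Rats aged 2 days comprised 5 males and 5 females without treatment and 4 of each sex with PDTC. At 2 weeks there were 6 males and 5 females without treatment, and 4 males and 6 females with PDTC. Adults, 36 weeks old if male and 42 weeks old if female, comprised 5 rats in each of the 4 groups, so that adult sex and age in weeks cannot be told apart. The labels name no litter or dam. Rats of a group may therefore be littermates, and a p-value here covers the spread among the rats sampled and no more.

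Pups lay on slides 1 to 6 and adults on slides 7 to 10, so that adulthood and slide cannot be told apart, whereas 2 days and 2 weeks shared slides. The exception was untreated 2-week male 6, on slide 8 with adults. It lay apart from the other 2-week arrays and is left out of every comparison and described apart. Background levels were 59.9 to 136.6 signal units, and 9139 to 12488 probes per array were above background. Of the 8 markers of kidney epithelium with a probe, 8 were above background at each age. Values below are log2 levels after background correction and quantile normalization. Levels of different probes cannot be set against each other. Class II genes form a multigene family that differs between strains, and the pairing of each probe with the FHH allele or with near copies was not tested. In RNA of a whole tissue, fewer cells of a type and less RNA per cell cannot be told apart.

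A class II molecule is a pair of an alpha and a beta chain that holds a peptide from the endosome at the cell surface and shows it to CD4+ T cells. RT1-Ba and RT1-Bb encode the alpha and beta chains of RT1-B, the rat counterpart of mouse I-A and human HLA-DQ, and RT1-Da and RT1-Db1 those of RT1-D, the counterpart of I-E and HLA-DR. Cd74 encodes the invariant chain, which holds the groove of a new class II molecule closed and guides it to the endosome, where proteases trim it and RT1-DM exchanges its last fragment for a peptide. Dendritic cells, macrophages and B cells express the set constitutively, and other cells, kidney tubule epithelium among them, can express it when exposed to interferon gamma. The coactivator Ciita governs the set through proteins bound at short promoter elements called the X and Y boxes.

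The stretches upstream of the 5 genes are shown because these elements are what the genes are known to share. Each is the 150 bases before the gene's start in RefSeq, assembly GRCr8, written 5′ to 3′ along the gene's strand. Capitals mark AGCAAC (the core of the X1 box), TGACGTCA (the X2 palindrome) and CTGATTGG (the Y box), each searched on both strands. No match of these 3 overlapped another.
Cd74, chr18:56527056-56527205, plus strand: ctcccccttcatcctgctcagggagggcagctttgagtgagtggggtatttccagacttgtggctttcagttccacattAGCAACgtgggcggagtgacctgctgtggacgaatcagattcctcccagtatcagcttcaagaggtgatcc
RT1-Ba, chr20:4576907-4577056, plus strand: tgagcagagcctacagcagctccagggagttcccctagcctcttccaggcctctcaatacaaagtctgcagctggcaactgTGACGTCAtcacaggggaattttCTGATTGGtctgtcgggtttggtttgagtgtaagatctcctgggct
RT1-Bb, chr20:4604119-4604268, minus strand: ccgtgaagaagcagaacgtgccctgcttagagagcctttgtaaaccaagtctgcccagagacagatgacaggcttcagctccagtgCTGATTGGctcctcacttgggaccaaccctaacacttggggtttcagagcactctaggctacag
RT1-Da, chr20:4515265-4515414, plus strand: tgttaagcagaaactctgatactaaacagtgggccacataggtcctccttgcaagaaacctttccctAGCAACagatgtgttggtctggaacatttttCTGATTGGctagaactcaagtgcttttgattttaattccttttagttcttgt
RT1-Db1, chr20:4560163-4560312, minus strand: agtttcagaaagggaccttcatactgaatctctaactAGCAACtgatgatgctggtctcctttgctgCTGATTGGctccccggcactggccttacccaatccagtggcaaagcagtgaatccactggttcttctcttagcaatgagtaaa

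The Y box letters were found in 4 of the 5 stretches, beginning at position -46 in RT1-Ba, -52 in RT1-Da, -64 in RT1-Bb and -83 in RT1-Db1, counted from the gene's start. Among 33469 stretches of this length 2.45% held them. AGCAAC was found in 3 of the 5, those of Cd74, RT1-Da and RT1-Db1, against 7.5% of stretches, and TGACGTCA in RT1-Ba, against 1.36%. In RT1-Da and RT1-Db1 the X1 core lay upstream of the Y box, at positions -83 and -113. The NF-kB consensus matched in RT1-Ba, against 3.82% of stretches. A stretch without a match shows only that these letters are absent from this window.

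All 4 measured genes rose from 2 days to 2 weeks and again from 2 weeks to adulthood, in untreated and in PDTC rats. In untreated rats Cd74 rose 3.30-fold and then 9.37-fold, RT1-Ba 4.81-fold and 6.15-fold, RT1-Da 3.99-fold and 3.95-fold, and RT1-Db1 3.23-fold and 5.80-fold. From 2 days to adulthood the folds were 30.9 for Cd74, 29.6 for RT1-Ba, 15.7 for RT1-Da and 18.7 for RT1-Db1.

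The size of the rises depended on the processing. With arrays scaled to 1 median in place of quantile normalization, the median of all probes moved to -0.647 on the log2 scale between 2 weeks and adulthood in untreated rats. The rise in that step was then 2.48 for Cd74, 1.76 for RT1-Ba, 1.30 for RT1-Da and 1.73 for RT1-Db1, which is 3.13, 2.41, 1.95 and 2.38 relative to that median. From 2 days to adulthood the scaled rises were 4.34, 4.17, 3.44 and 3.57. The authors' deposited log2 values gave RT1-Ba a rise of 1.46 from 2 days to 2 weeks, against 2.27 here, and of 3.86 from 2 days to adulthood, against 4.89. These values lay within 0.262 of quantile-normalized log2 signals without background correction. RT1-Ba was near background at 2 days, with a raw signal of 150.2 over a background level of 109.9 in untreated male 4. The smallest untreated rise from 2 days to 2 weeks under any alternative was 1.31 for Cd74, 1.87 for RT1-Da and 1.38 for RT1-Db1.

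In untreated kidneys aged 2 days (n = 10) the log2 level of Cd74, the invariant chain, was lowest at 6.80, 7.36 in the median and highest at 7.56. At 2 weeks (n = 10) the 3 values were 8.84, 9.07 and 9.20. In untreated adults (n = 10) they were 11.50, 12.14 and 12.99. The ages did not overlap, and every rat of a later age lay above every rat of the earlier age, as for 4.99% of the probes tested in the first step and 10.6% in the second. In PDTC rats Cd74 was 6.73, 6.98 and 7.45 at 2 days (n = 8), 8.60, 8.82 and 9.09 at 2 weeks (n = 10), and 11.71, 12.04 and 13.51 in adults (n = 10). Those ages did not overlap either, as for 5.48% and 11.2% of probes. The untreated difference in log2 level was 1.72 ± 0.083 (SE) from 2 days to 2 weeks, with an adjusted p of 2.58e-12 (limma, Benjamini-Hochberg over all probes tested). From 2 weeks to adulthood it was 3.23 ± 0.161, with an adjusted p of 6.61e-13 (limma).

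RT1-Ba, the alpha chain of RT1-B, had in untreated rats a lowest, median and highest log2 level of 5.46, 6.33 and 6.68 at 2 days, 8.07, 8.54 and 8.77 at 2 weeks and 10.54, 11.13 and 11.78 in adults. The PDTC values were 5.86, 6.17 and 6.39 at 2 days, 8.11, 8.36 and 8.54 at 2 weeks and 10.53, 11.08 and 12.42 in adults. No 2 ages overlapped in either treatment. The untreated differences were 2.27 ± 0.11 and 2.62 ± 0.128 on the log2 scale, with adjusted p of 2.85e-12 and 4.52e-13 (limma).

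RT1-Da, the alpha chain of RT1-D, stood in untreated rats at 8.87, 9.43 and 9.92 at 2 days, 11.19, 11.47 and 11.60 at 2 weeks and 12.67, 13.56 and 14.03 in adults, as lowest, median and highest log2 level. In PDTC rats it stood at 9.003, 9.31 and 9.64, at 11.06, 11.26 and 11.40, and at 12.82, 13.61 and 14.49. Again the ages were separate. The untreated differences were 1.99 ± 0.104 and 1.98 ± 0.153, with adjusted p of 8.5e-12 and 7.07e-10 (limma).

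RT1-Db1, the beta chain that pairs with RT1-Da, had untreated log2 levels of 7.30, 7.79 and 8.14 at 2 days, 8.96, 9.49 and 9.87 at 2 weeks and 11.60, 11.82 and 12.76 in adults. In PDTC rats the values were 7.23, 7.61 and 7.83, then 9.18, 9.33 and 9.57, then 11.46, 12.13 and 12.92. The ages did not overlap. The untreated differences were 1.69 ± 0.11 and 2.54 ± 0.159, with adjusted p of 2.54e-10 and 2.61e-11 (limma).

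**Figure D1:**
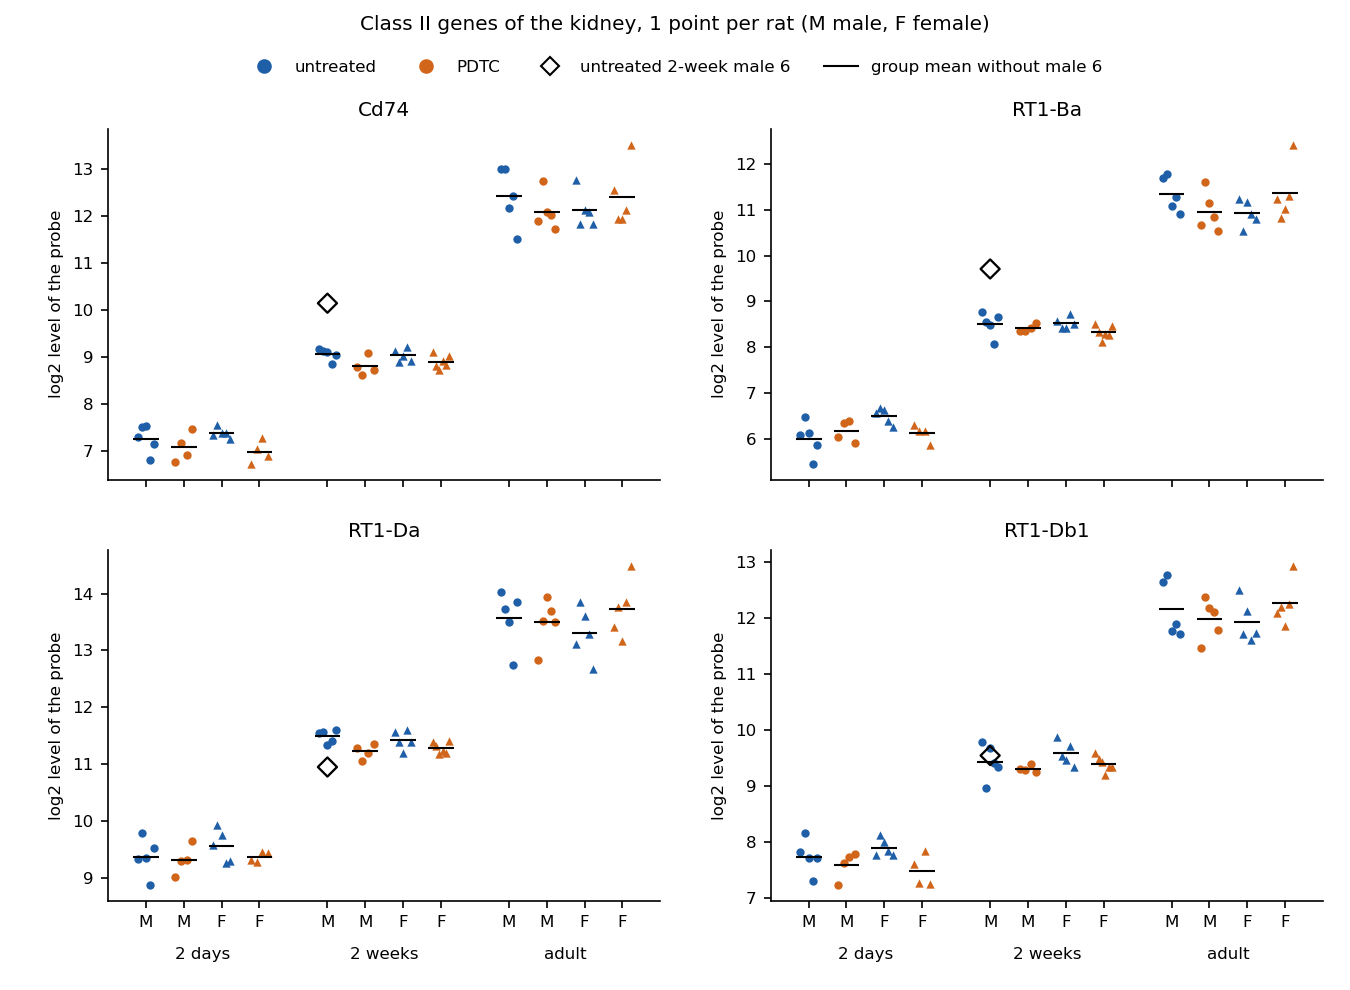
Log2 level of the probe of each class II gene (vertical axis) in every rat, by age, sex (M male circles, F female triangles) and treatment (blue untreated, orange PDTC), with lines at group means and an open diamond for untreated 2-week male 6. The ages form 3 separate bands in each panel, and the diamond lies above the 2-week band for Cd74 (10.14) and RT1-Ba (9.71) and below it for RT1-Da (10.95).

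Many probes differed between ages, and the counts have to be read beside that. In untreated rats 19.8% of 13340 probes were called higher at 2 weeks than at 2 days (adjusted p under 0.05) and 23.7% lower. In adults 33.2% of 13077 probes were called higher than at 2 weeks and 33.7% lower, and 35.1% of 13079 were called higher than at 2 days and 36.3% lower. In PDTC rats 18% of probes were called higher from 2 days to 2 weeks, 32.7% from 2 weeks to adulthood and 34% from 2 days to adulthood. The 4 class II genes were called higher in each of the 6 comparisons. By size of rise from 2 days to adulthood in untreated rats, Cd74 had rank 14, RT1-Ba 15, RT1-Db1 32 and RT1-Da 41 of the 13079 probes. From 2 days to 2 weeks RT1-Ba had rank 28, RT1-Da 42, Cd74 82 and RT1-Db1 85 of 13340. From 2 weeks to adulthood Cd74 had rank 39, RT1-Ba 83, RT1-Db1 94 and RT1-Da 172 of 13077. The median rise of the 4 was 1.86 and 2.58 on the log2 scale for the 2 steps, against medians of -0.02 and 0.0023 over all probes tested.

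In PDTC rats Cd74 rose by 1.82 ± 0.0999 from 2 days to 2 weeks and by 3.40 ± 0.172 from 2 weeks to adulthood on the log2 scale, 37.2-fold in all. RT1-Ba rose by 2.22 ± 0.0812 and 2.79 ± 0.165, RT1-Da by 1.91 ± 0.076 and 2.37 ± 0.146, and RT1-Db1 by 1.81 ± 0.0922 and 2.77 ± 0.125. Adjusted p ranged from 1.74e-13 to 1.49e-10 over these 8 values (limma). Since 2 days and 2 weeks shared slides, that step could be read within a slide. Each of the 4 genes was higher at 2 weeks on 6 of 6 slides in untreated rats and on 5 of 5 in PDTC rats. The within-slide difference in log2 level for Cd74 was 1.56 to 2.22 in untreated and 1.49 to 2.22 in PDTC rats. No slide held both adults and the pups compared, so the step to adulthood had no such value.

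**Figure D2:**
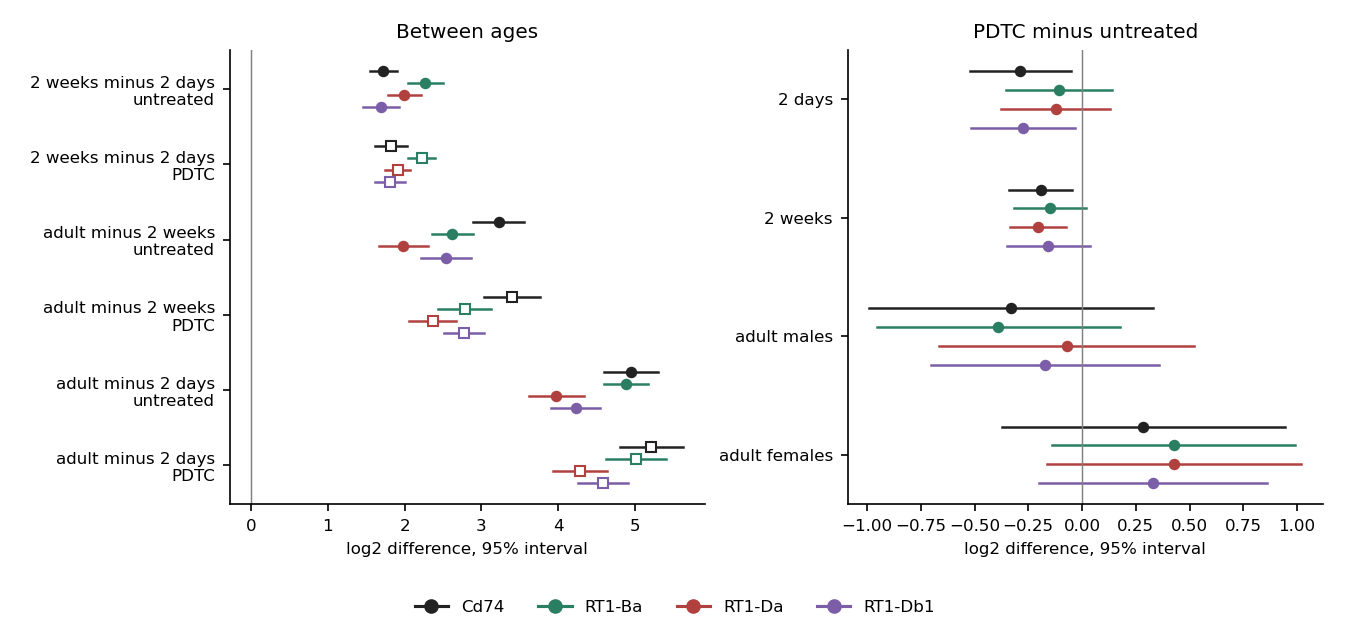
Log2 difference (horizontal axis) with its 95% interval for each class II gene, between ages in untreated (filled circles) and PDTC rats (open squares) at left and for PDTC minus untreated at right. At left every interval lies above 1, and at right 0 of the genes passed the test, with intervals in adults as wide as -0.99 to 0.328 for Cd74 in males.

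Sorted by their mean, the 12 groups of age, sex and treatment fell into the order of age for each of the 4 genes. Of the 11 neighbouring pairs of groups in that order 9 overlapped and 2 did not, the 2 being the borders between ages. Over rats of both treatments together, 2.89% of probes had every rat aged 2 weeks above every rat aged 2 days, and 6.6% every adult above every rat aged 2 weeks. For Cd74 the highest rat aged 2 days and the lowest aged 2 weeks were 1.05 apart on the log2 scale, and the highest aged 2 weeks and the lowest adult 2.31. The gaps were 1.39 and 1.76 for RT1-Ba, 1.14 and 1.07 for RT1-Da, and 0.817 and 1.59 for RT1-Db1. The SD between rats of a group, pooled over the groups of an age, was lowest at 2 weeks and highest in adults for each gene. For Cd74 it was 0.244 at 2 days, 0.148 at 2 weeks and 0.532 in adults, and for RT1-Da 0.266, 0.126 and 0.472.

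PDTC was followed by no called difference in any class II gene at any age. At 2 days 0% of 13163 probes were called, at 2 weeks 0% of 13320 and in adults 0% of 11701, with 2085, 711 and 668 probes at an unadjusted p under 0.05 (limma). The 4 genes were all lower in PDTC pups at both ages, by medians of -0.2 at 2 days and -0.175 at 2 weeks on the log2 scale, against medians over all probes of -0.0161 and 0.00123. No member passed the test.

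At 2 days Cd74 was lower with PDTC by -0.29 ± 0.111 (95% interval -0.522 to -0.0529), with 7 of 8 PDTC rats below the untreated mean, p of 0.0192 and adjusted p of 0.221 (limma). RT1-Db1 differed by -0.28 ± 0.115 with 7 of 8 rats below, p of 0.0272 and adjusted p of 0.245. RT1-Ba differed by -0.11 ± 0.117 and RT1-Da by -0.12 ± 0.12. Groups overlapped for each gene. Within slides, Cd74 and RT1-Db1 were lower on 4 of 5 slides. On slides 1 and 3, both among those 4, the PDTC rat and the untreated rat were of opposite sex, so PDTC and sex could not be told apart there. Of 5 granulocyte markers tested 5 were lower in the same comparison, with a median of -0.312, S100a8 differing by -0.49 ± 0.109 (adjusted p of 0.125, limma). Of 12 macrophage markers 10 were lower (median -0.0311) and of 6 pan-leukocyte markers 4, while 3 of 5 T cell and 2 of 3 B cell markers were higher. None passed the test, and their part in the class II values was not tested. With arrays scaled to 1 median RT1-Ba and RT1-Da turned to 0.0211 and 0.0694, while the median of all probes moved to 0.124, and relative to it they were -0.103 and -0.0546.

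At 2 weeks RT1-Da was lower with PDTC by -0.21 ± 0.0626 (95% interval -0.336 to -0.0742). All 10 PDTC rats were below the untreated mean, with p of 0.00389 and adjusted p of 0.904 (limma), and RT1-Da was lower on 6 of 6 slides. PDTC and untreated rats were not matched in sex on every slide. Cd74 differed by -0.19 ± 0.0701 (8 of 10 rats below, p of 0.0125, adjusted p of 0.915), RT1-Ba by -0.15 ± 0.0794 (9 of 10) and RT1-Db1 by -0.16 ± 0.0923 (9 of 10). PDTC and untreated rats overlapped for each gene, RT1-Da included. Most leukocyte lists lay on the same side. Of 7 pan-leukocyte markers 7 were lower, with a median of -0.0852, and of 12 macrophage markers tested 9, with a median of -0.0865. Of 4 T cell markers 3 were lower and of 2 dendritic cell markers 2, whereas 2 of 3 B cell markers were higher (median 0.0219). None was past the test. The part of these cells in the class II values was not tested.

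The PDTC effect at 2 weeks minus that at 2 days was 0.095 ± 0.13 for Cd74, -0.043 ± 0.141 for RT1-Ba, -0.082 ± 0.133 for RT1-Da and 0.12 ± 0.148 for RT1-Db1. In that comparison, as in that of adults with 2 weeks, 0% of probes were called (664 and 587 at an unadjusted p under 0.05, limma). The adult effect minus the 2-week effect ranged from 0.17 ± 0.211 for RT1-Ba to 0.38 ± 0.215 for RT1-Da.

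In adults, exposed up to 4 weeks of age, the effect over both sexes was -0.023 ± 0.223 for Cd74, 0.019 ± 0.192 for RT1-Ba, 0.18 ± 0.201 for RT1-Da and 0.078 ± 0.18 for RT1-Db1. Its 95% interval for Cd74 was -0.489 to 0.443. The sexes had opposite signs. In males the 4 genes were lower with PDTC, by -0.33 ± 0.316, -0.39 ± 0.271, -0.071 ± 0.284 and -0.17 ± 0.254 for Cd74, RT1-Ba, RT1-Da and RT1-Db1. In females they were higher, by 0.29 ± 0.316, 0.43 ± 0.271, 0.43 ± 0.284 and 0.33 ± 0.254. In both sexes 0% of probes were called (945 in males and 681 in females at an unadjusted p under 0.05, limma).

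The female effect minus the male effect was 0.62 ± 0.447 for Cd74, 0.82 ± 0.383 for RT1-Ba, 0.50 ± 0.402 for RT1-Da and 0.50 ± 0.359 for RT1-Db1. The lowest p of these was 0.0458, for RT1-Ba, with an adjusted p of 0.63 (limma). At 2 days the same difference was -0.55 ± 0.235 for RT1-Ba, with p of 0.0313 and adjusted p of 1, and so of the opposite sign. Of all probes 0% were called for the sex difference of the effect at any age, and an unadjusted p under 0.05 was reached by 309 probes of the youngest rats, 216 at 2 weeks and 919 of the adults. The 95% interval of the adult difference began at 0.0168 for RT1-Ba and below 0 for the other 3 genes. RT1-Ba was lower with PDTC on 4 of 4 slides in adult males and on 2 of 4 in adult females. None of these differences passed the test over all probes.

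By rat, Cd74 was 12.99, 12.98, 12.16, 12.43 and 11.50 in untreated adult males and 11.88, 12.74, 12.07, 12.00 and 11.71 in PDTC males. In untreated adult females it was 12.75, 11.83, 12.13, 12.07 and 11.82, and in PDTC females 12.55, 11.93, 11.92, 12.11 and 13.51. The 4 groups overlapped, and the highest rat of all, PDTC female 5 at 13.51, stood well above the next of its group at 12.55. The same rat was the highest adult for RT1-Ba (12.42), RT1-Da (14.49) and RT1-Db1 (12.92). It also had the highest summed signal of the adults for macrophage markers (15200, adult median 5480), pan-leukocyte markers (7930, median 4030) and T cell markers (1680, median 605). Without it the female effect was 0.0095 for Cd74, 0.16 for RT1-Ba, 0.24 for RT1-Da and 0.17 for RT1-Db1, the female effect minus the male effect was 0.341 for Cd74, 0.549 for RT1-Ba, 0.31 for RT1-Da and 0.339 for RT1-Db1, and the effect over both sexes turned to -0.115 for RT1-Ba and -0.0048 for RT1-Db1.

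Most leukocyte markers lay on the same side as the class II genes in these adult comparisons. Of 12 macrophage markers tested 12 were higher with PDTC in females, with a median of 0.502, and 10 were lower in males, with a median of -0.349. Of 6 pan-leukocyte markers 5 were higher in females (median 0.503) and 5 lower in males (median -0.356). Of 5 T cell markers 4 were higher in females (median 0.644) and 5 lower in males (median -0.436). Of 3 B cell markers 2 were higher in females and 2 lower in males. No marker was past the test, and their part in the class II values was not tested. The female counts and medians include PDTC female 5 and were not recomputed without this rat. The summed macrophage signal of the other PDTC females was 3960 to 7010, against 3160 to 6030 in untreated females.

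Sex itself was followed by no called difference. Females minus males came to 0.013 ± 0.111 for Cd74 at 2 days, 0.037 ± 0.0701 at 2 weeks and 0.014 ± 0.223 in adults. The largest of the 12 values was 0.23 ± 0.117, for RT1-Ba at 2 days, with p of 0.0677 and adjusted p of 1 (limma), where RT1-Ba was higher in females on 6 of 6 slides. On slides 1 and 3 the male and the female also differed in treatment, so sex and PDTC could not be told apart there. By group, mean RT1-Ba at 2 days was 6.002 in untreated males and 6.507 in untreated females. With PDTC the means were 6.171 in males and 6.124 in females. Of all probes 0% were called at 2 days and 0% at 2 weeks (151 and 190 at an unadjusted p under 0.05), and 2.69% of 11701 in adults.

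Within an age, after each group's mean was taken off, rats high in 1 gene tended to be high in others, though not for every pair. In adults (n = 20) Cd74 correlated with RT1-Ba at r = 0.924 and Spearman's rho = 0.892, each with the smallest p that 100000 permutations can give, 1e-05, and an adjusted p of 9e-05 and 0.00018 over 18 relations. Without the 2 rats farthest from the median r was 0.903, and 0.944 with slide taken off as well. Cd74 and RT1-Db1 had r = 0.849 and rho = 0.716 (permutation p of 1e-05 and 0.0005, adjusted 9e-05 and 0.00225), with r = 0.811 without the 2 farthest rats. Cd74 and RT1-Da had r = 0.29 and rho = 0.183 (permutation p of 0.216 and 0.437, adjusted 0.243 and 0.437). Their r was 0.216 without the 2 farthest rats, and 0.436 over all adults with slide taken off. At 2 days (n = 18) the last pair had r = 0.706 and rho = 0.6 (permutation p of 0.00121 and 0.00975, adjusted 0.00272 and 0.0219), falling to r = 0.527 without the 2 farthest rats. RT1-Da and RT1-Db1, the chains of 1 molecule, had r = 0.766 and rho = 0.719 at 2 days (permutation p of 0.00023 and 0.00108, adjusted 0.00104 and 0.00389). In adults they had r = 0.532 and rho = 0.523 (permutation p of 0.0153 and 0.019, adjusted 0.025 and 0.0311). At 2 weeks (n = 20), where the spread was least, they had r = 0.156 and rho = 0.195 (permutation p of 0.514 and 0.408, adjusted 0.514 and 0.432). That was the lowest r of the pairs at 2 weeks. Cd74 had r = 0.665 with RT1-Ba, 0.471 with RT1-Da and 0.355 with RT1-Db1 (adjusted permutation p of 0.00272, 0.0558 and 0.15). RT1-Ba had r = 0.667 with RT1-Da and 0.267 with RT1-Db1 (adjusted permutation p of 0.00272 and 0.27). Whether a pair's correlation differed between ages was not tested.

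**Figure D3:**
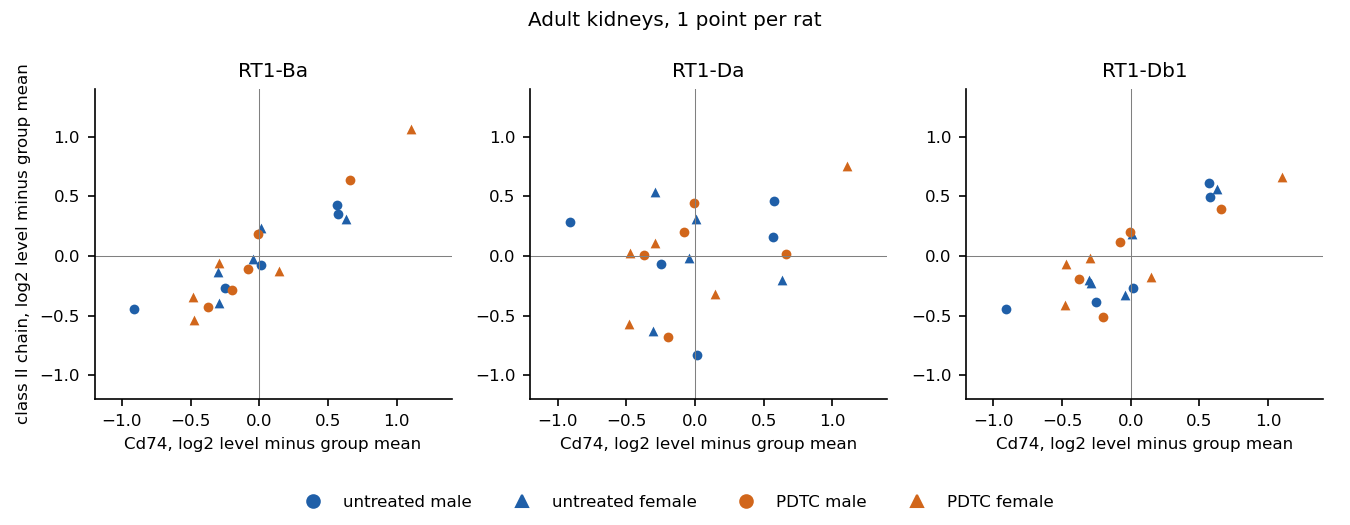
Deviation of each adult rat from its group's mean log2 level, for Cd74 (horizontal axis) against RT1-Ba, RT1-Da and RT1-Db1 (vertical axes), coloured by treatment and shaped by sex. The points follow a line for RT1-Ba (r = 0.924) and RT1-Db1 (r = 0.849) and scatter for RT1-Da (r = 0.29), and PDTC female 5 lies at the upper right of each panel.

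Likeness to Cd74 was ranked over 58 arrays and 11103 probes by Pearson's r after group means were taken off, as a description. RT1-Ba had rank 1 (r = 0.814), RT1-Db1 rank 3 (0.758) and RT1-Da rank 1398 (0.371). The 10 named genes outside the set with the highest r were RT1-M10-1 (0.807), Angptl4 (0.751), Psmb10 (0.746), Timp1 (0.744), Camlg (0.743), Snx20 (0.73), Cd99 (0.729), Arpc1b (0.729), RT1-DMb (0.728) and Nosip (0.71). Among these RT1-DMb is a chain of the peptide exchanger, Psmb10 a subunit of the immunoproteasome and Timp1 an inhibitor of matrix metalloproteases. By age, r with Cd74 was 0.856 at 2 days, 0.159 at 2 weeks and 0.868 in adults for RT1-M10-1, and 0.555, -0.412 and 0.863 for RT1-DMb. For Psmb10 it was 0.254, 0.438 and 0.852. Closest to RT1-Da were RT1-CE15 (0.721) and Prkcb (0.719).

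The rest of the pathway rose with the class II genes in part. Of 45 genes listed 41 had a probe and 33 were tested. From 2 days to 2 weeks in untreated rats 15 were called higher and 2 lower, with a median of 0.259 on the log2 scale. From 2 weeks to adulthood 21 were called higher and 5 lower, with a median of 0.638. The class II medians of 1.86 and 2.58 were above both. For these counts and those of the lists below, the shares over all probes were 19.8% called higher and 23.7% lower in the first step. In the second they were 33.2% and 33.7%. Of 3 surface turnover and costimulation genes tested 1 was called higher in the first step (median 0.377). In the second all 3 were lower, 1 of them called (median -0.129).

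The regulators did not move as a group. Ciita, the coactivator on which class II transcription depends, was above background on 0 of 18 arrays at 2 days, 0 of 20 at 2 weeks and 2 of 20 in adults, and Rfx5, an X box protein, on 0 at each age, so neither was tested. Of 5 regulators tested 1 was called higher and 1 lower from 2 days to 2 weeks, Nfyb, a subunit of the Y box factor, falling by 0.79 ± 0.104. Rfxank, another of the 5, named after its values were seen, had mean log2 levels of 6.50, 6.70 and 7.59 at the 3 ages over both treatments. It was above background on all 18, 20 and 20 arrays. From 2 weeks to adulthood 2 regulators were called higher and 3 lower. Of 6 interferon gamma genes tested 1 was called in the first step, with a list median of 0.0238, and 3 were called higher and 1 lower in the second. The 1 called in the first, Irf1, a transcription factor that interferon gamma induces, rose by 0.86 ± 0.111.

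Of 3 peptide loading genes tested 2 were called higher in the first step and 3 in the second. RT1-DMa rose by 0.26 ± 0.0832 and then 2.13 ± 0.129, and RT1-DMb by 0.60 ± 0.0602 and 1.24 ± 0.112, where the 2 encode the chains of the peptide exchanger. RT1-DOa, a chain of its inhibitor and the third gene tested in the list, named after its values were seen, differed by -0.12 ± 0.17 and then rose by 1.07 ± 0.202. Of the endosomal proteases and the reductase Ifi30, 7 genes tested in all, 5 were called higher from 2 days to 2 weeks and 6 from 2 weeks to adulthood. Ctsl, which trims the invariant chain in some cells, rose by 0.80 ± 0.106 in the first step and Ctss, which does so in antigen-presenting cells, by 2.31 ± 0.174 in the second. Ctsd and Ctsh rose by 2.56 ± 0.153 and 2.06 ± 0.114 in the second.

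On the class I side, whose molecules show peptides made by the proteasome, 5 of 9 genes were called higher and 1 lower in the first step, and 7 were called higher in the second. B2m, the light chain of class I, rose by 0.83 ± 0.0512 in the first step and Tap2, a subunit of the peptide transporter, by 0.74 ± 0.0996. The immunoproteasome subunits Psmb8 and Psmb9 rose by 2.84 ± 0.185 and 2.10 ± 0.228 in the second.

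Markers of leukocytes did not move alike in the 2 steps. From 2 days to 2 weeks, while the class II genes rose 3.23-fold to 4.81-fold, 1 of 11 macrophage markers tested was called higher and 4 lower, with a median of -0.175. The complement gene C1qb fell by 0.52 ± 0.113 and C1qc by 0.36 ± 0.121, and the receptor Cd14 rose by 0.40 ± 0.0953. The summed signal of the macrophage list was 1530 to 2100 at 2 days (median 1830) and 1300 to 2140 at 2 weeks (median 1530). Of 5 T cell markers 0 were called in this step (limma, unadjusted p of 0.342 or higher for each), of 7 pan-leukocyte markers 1 was called higher and 1 lower, and of 3 B cell markers 1 was called higher. Of 3 dendritic cell markers 2 were called lower, Cd83 falling by 1.30 ± 0.0845. Granulocyte markers were mostly called lower (4 of 5 tested, with 1 higher, median -1.05). Endothelial markers, which are not of leukocytes, were called higher in 4 of 6 and lower in 0 (median 0.384).

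Markers of B and dendritic cells were not above background for part of each list, and the genes named next were chosen after their values were seen. Of 6 B cell markers with a probe 3 were above background on an array at 2 days, 5 at 2 weeks and 3 in adults, and of 8 dendritic cell markers 4, 2 and 5. Cd79b, a chain of the B cell receptor, was above background on 18 of 18, 20 of 20 and 17 of 20 arrays, and Ms4a1 on 0 at each age. Among dendritic cell markers Xcr1 and Irf4 were above background on 0 arrays, Flt3 on 5 and Clec9a on 2 arrays of adults, and Batf3 on 12 arrays at 2 days. The summed B cell signal was 558 to 824, 752 to 1040 and 588 to 1520 at the 3 ages, and the summed dendritic cell signal 1160 to 1810, 618 to 901 and 1000 to 3330. Each sum is weighted toward its gene of highest level. For B cells that gene was Blnk (mean log2 level 9.288, 9.583 and 9.346 at the 3 ages). For dendritic cells it was Cd83 (10.35, 9.015 and 10.09).

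From 2 weeks to adulthood, 10 of 12 macrophage markers tested were called higher and 1 lower, with a median of 1.79. Tyrobp, an adaptor of activating receptors, rose by 2.23 ± 0.265, the macrophage antigen Adgre1 by 2.14 ± 0.399 and C1qa by 2.11 ± 0.216. The summed macrophage signal was 3160 to 15200 in adults (median 5480), above the range of the pups. Of 6 T cell markers 5 were called higher and 1 lower. Cd3g, a chain of the T cell receptor complex, rose by 2.70 ± 0.142, and Cd3d was above background on 0 of 20 arrays at 2 weeks and 18 of 20 in adults. Of 2 dendritic cell markers 2 were called higher (median 1.02), and of 3 B cell markers 2 higher and 1 lower, Cd37 rising by 2.43 ± 0.258. The summed T cell signal was 130 to 231 at 2 weeks and 366 to 1680 in adults. Pan-leukocyte markers were split, with 3 called higher (Cd53 by 2.52 ± 0.218) and 3 lower (Cd48 by -1.62 ± 0.0974). Granulocyte markers had 1 of 3 called higher and 1 lower (median 0.431), and endothelial markers 1 of 5 higher and 4 lower (median -0.731). The part of these cells in the class II rise was not tested.

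**Figure D4:**
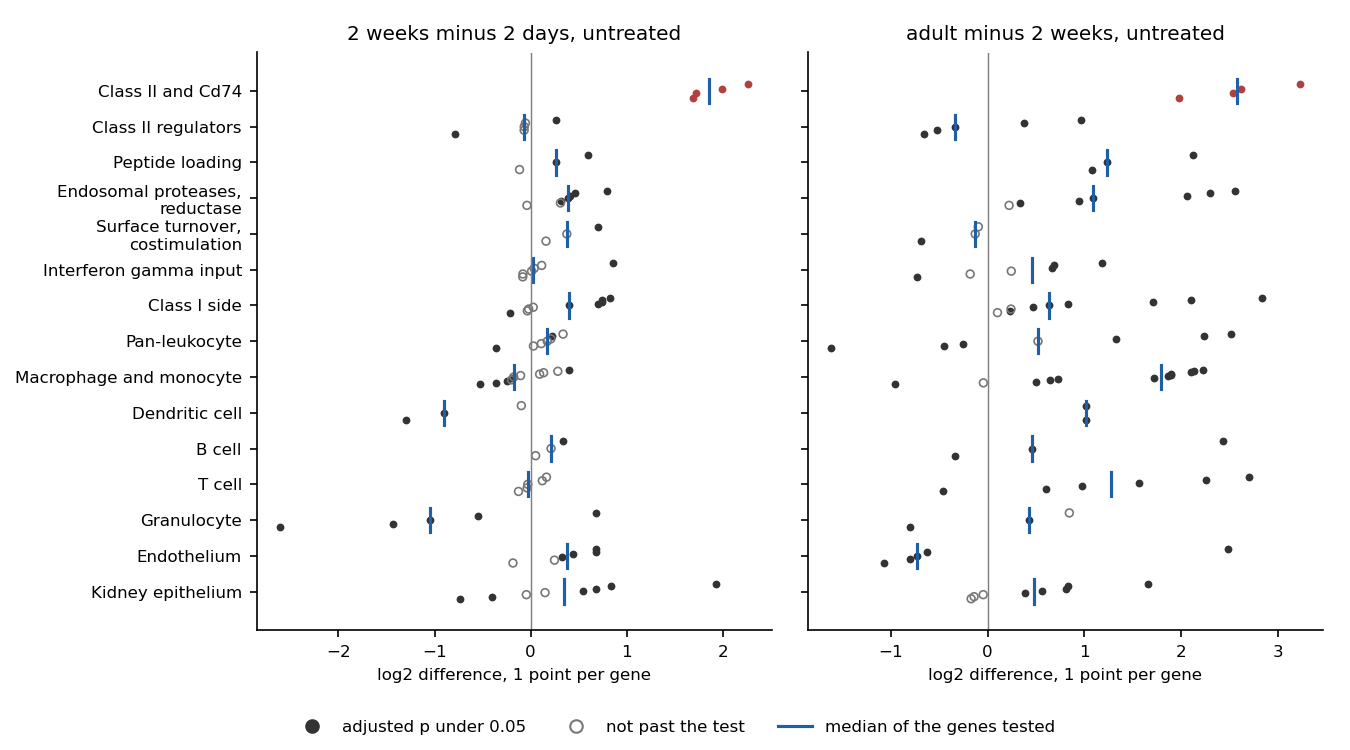
Log2 difference (horizontal axis) of each gene tested, by list (rows), from 2 days to 2 weeks (left) and from 2 weeks to adulthood (right) in untreated rats, with filled points past the test and blue bars at medians. At left the 4 class II genes (red, median 1.86) lie to the right of every macrophage and T cell marker, and at right the macrophage markers (median 1.79) reach into their range.

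Untreated 2-week male 6, on a slide of adults, did not sit between the ages in the same way for each gene. Its Cd74 level was 10.14, above the 20 other 2-week rats (8.60 to 9.20) and below every adult (11.50 or higher). Its RT1-Ba level was 9.71, likewise above the other 2-week rats (8.07 to 8.77) and below every adult (10.53 or higher). RT1-Db1, at 9.54, lay inside the 2-week range of 8.96 to 9.87. RT1-Da, at 10.95, lay below the 2-week range of 11.06 to 11.60. On a scale from the untreated 2-week mean to the untreated adult mean, the array stood at 34.1% for Cd74, 45.4% for RT1-Ba, 1.34% for RT1-Db1 and -25.7% for RT1-Da. Of the 4339 probes called higher in untreated adults than at 2 weeks, this array lay above all other 2-week arrays for 54.6% and below all of them for 5.95%. Its summed macrophage signal (2050) and T cell signal (171) lay inside the range of the other 2-week rats, and its pan-leukocyte signal (3400) below their range of 3910 to 4900. Sums weight the genes of highest level, and single markers went both ways. Named after their values were seen, Aif1 (10.15) and Tyrobp (6.566) were above the means of the other 2-week rats (9.226 and 5.866). Cd14 (5.646) and Cd48 (10.08) were below theirs (7.379 and 11.03).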

How the data were processed

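RNA was extracted with TRIzol and purified by column, and the Illumina TotalPrep kit served for amplification and labelling, per the labels' protocols. The deposited intensity table holds 1 signal and 1 detection p-value per probe and array, per the file headers. The detection p-values as deposited were small below background as well as above it, so a filter on them was not used. The deposited log2 values of the authors (method not given in the sources used here) ranked probes as the signals did.

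Each array's background level was taken from its 50 probes of highest detection p-value, as their median signal. After normexp correction with it, 16 was added, and the 59 arrays were quantile-normalized and put on the log2 scale. Probes above background (one-sided p under 0.05) on at least 4 arrays of a fit were tested with limma 3.58.1 in R 4.3.3 on group means, with Benjamini-Hochberg adjustment over all probes tested. The limma step alone was tested on simulated data, in which known shifts and noise without slide effects were put on normalized means. Background correction and normalization were not tested in this way. Summed signals of marker lists are linear. Named pathway genes were the largest past the test, at most 6 per comparison, with Ciita, Rfx5, RT1-DMa and RT1-DMb, and at most 4 per cell type list. Members and lists were chosen with earlier results of these data known. Alternatives were no normexp correction, median scaling, no filter, the deposited values, slide as a fixed term or random block, male 6 kept in, 1 fit of all groups and leaving out each array.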

Additional observations from a re-analysis of the deposited data

Results flagged for a closer look

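In the group of untreated 2-week males, with male 6 counted among its 6 rats, the Cd74 level of male 6 was 10.14 and the next highest was 9.16. That gap was 0.752 of the group's range, where 0.625 is the critical value of Dixon's test. This was the 1 value so marked among the 52 groups of class II values screened, and chance marks about 1 in 20 groups.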

How the results depend on the processing

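The number of class II genes called did not change in 408 recounts of 1 comparison with 1 array left out or in 137 recounts under other settings, and 1561 and 532 single differences kept their direction and side of the threshold. The values that changed sign, 71 with 1 array left out and 16 under other settings, were uncalled differences. With arrays scaled to 1 median, PDTC minus untreated turned to 0.0211 for RT1-Ba and 0.0694 for RT1-Da at 2 days and to 0.0908 for Cd74 in adults. The PDTC effect at 2 weeks minus 2 days turned to -0.0158 for Cd74 and -0.0173 for RT1-Db1, and female minus male to -0.00945 for Cd74 and -0.00906 for RT1-Db1 at 2 days, -0.0175 for Cd74 at 2 weeks and 0.0629 for RT1-Da in adults. With slide as a fixed term the PDTC effect turned to 0.00405 for RT1-Da in adult males and -0.00424 for RT1-Ba in adults, the sex difference of the effect at 2 weeks to 0.00245 for RT1-Db1, and female minus male in adults to 0.00666 for RT1-Ba. With male 6 kept in, that sex difference turned to 0.0825 for RT1-Ba, and female minus male at 2 weeks to -0.0534 for Cd74 and 0.0401 for RT1-Da. The cause of these turns was not tested.

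With 1 array left out, PDTC minus untreated in adults was -0.161 to 0.056 for Cd74, -0.115 to 0.0853 for RT1-Ba and -0.00482 to 0.154 for RT1-Db1, and in adult males -0.28 to 0.0975 for RT1-Da. The effect at 2 weeks minus 2 days was -0.103 to 0.0257 for RT1-Ba, and its sex difference at 2 weeks -0.153 to 0.052 for RT1-Db1. Female minus male was -0.0429 to 0.0758 for Cd74 and -0.0347 to 0.0772 for RT1-Db1 at 2 days, -0.0329 to 0.0238 for RT1-Da at 2 weeks, and in adults -0.124 to 0.0967 for Cd74, -0.14 to 0.0736 for RT1-Ba, -0.121 to 0.0626 for RT1-Da and -0.0514 to 0.108 for RT1-Db1.

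In 1 fit of all groups, which shares the spread of all ages, probes called for PDTC numbered 12 at 2 days, 93 in adults, 426 in adult males and 169 in adult females, and for the adult sex difference of the effect 494, each against 0. For adult sex they numbered 1591 against 315, and 122 with scaled arrays. No class II gene was among those called for PDTC or sex. The deposited values gave a rise of 1.46 for RT1-Ba from 2 days to 2 weeks in untreated rats, against 2.27. Arrays per group limit the precision in adults, where intervals of the PDTC effect allow differences of about 1 on the log2 scale. No paired analysis was possible because the labels give no replicate numbers. The main limma fits had no slide term. Slide entered only among the alternatives, as a random block or a fixed term, the latter not where adults were set against pups. The correlation within slides was 0.335 in the fit at 2 days, 0.223 at 2 weeks and 0.0332 in adults.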
